A study of Mus musculus with 4 samples.

Results

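Epithelial to mesenchymal transition (EMT) is the change by which epithelial cells loosen their junctions, lose E-cadherin and take on the shape and motility of mesenchymal cells. It is driven by a small group of transcription factors. Snail proteins (*Snai1*, *Snai2*) and ZEB proteins (*Zeb1*, *Zeb2*) are zinc finger repressors that bind E-boxes in the promoters of epithelial genes. The TWIST proteins (*Twist1*, *Twist2*) are basic helix-loop-helix factors, and *Tcf4* (E2-2) encodes an E protein of the kind with which they dimerize. *Prrx1* encodes a paired-related homeobox factor of mesenchyme. Vimentin (*Vim*), an intermediate filament protein, and N-cadherin (*Cdh2*) are the structural proteins most often read as marks of the mesenchymal state. In a whole tumor the same genes are also expressed by fibroblasts, endothelial cells and, for *Vim* and *Zeb2*, by myeloid cells.

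The 10 genes described here were chosen by name, as the EMT transcription factors, vimentin and N-cadherin, and not by any measured value. They were looked for among 10608 genes with a value in at least 1 whole tumor library. Tumors were grown from the 4T1 line, a carcinoma of the Balb/c mammary gland, in the mammary fatpad of female mice aged 8 weeks. The hosts were Foxp3+EGFP Balb/c, whose regulatory T cells (Tregs) carry EGFP. All mice bore the same tumor and reporter, and they differed in the splice modulating oligomer (SMO) given for 12 days, which was either Control SMO or LFPRLR SMO, which acts on splicing of the long prolactin receptor (LFPRLR). The GEO labels state that the injected 4T1 cells were treated with the SMO, whereas the methods of the study state that the mice were. RNA from 6 mice was pooled for each library, and there was 1 whole tumor library and 1 sorted tumor Treg library per SMO. No difference therefore has a replicate check or a test, and every ratio describes 2 libraries.

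In whole tumor 8 of the 10 genes were listed, 7 of them under Control SMO and all 8 under LFPRLR SMO. *Snai2* and *Cdh2* had none in any library. *Snai1* was lower under LFPRLR SMO by a factor of 2.17, and *Vim* was lower by a factor of 1.73, both by summed values. By summed values *Zeb2*, *Tcf4*, *Zeb1* and *Prrx1* were 1.56 to 2.54 times higher under LFPRLR SMO. Over exon bases covered in both libraries, which counts only stretches present in both, the ratios of these 4 genes were 0.947 to 1.22. *Snai1* and *Vim* had ratios of 0.461 and 0.720 by that measure. In bulk tumor, fewer cells of a type and less RNA per cell cannot be told apart.

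Levels are given as FPKM (read density scaled for transcript length and sequencing depth) in 2 ways. The summed FPKM adds all transcripts assigned to a gene, so that a gene assembled in several pieces counts each piece at its full FPKM. The exon-weighted value multiplies the FPKM of each transcript by its bases inside the exons of the gene, adds these products and divides them by the bases of the longest annotated transcript, so that a short piece no longer counts in full. The last measure, the FPKM per shared base, is the mean FPKM over only those exon bases of the gene that a transcript covered in both libraries. Log2 ratios are LFPRLR SMO over Control SMO after adding 0.1 to both.

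The libraries differed in how they were assembled. The Control SMO library held 22481 transcripts and the LFPRLR SMO library 31908, and the median read coverage per unit of FPKM was similar, at 1.88 and 1.75. Only 94.0% and 95.3% of transcripts had an FPKM inside their own deposited bounds, which are therefore quoted here as deposited and not as errors. Transcripts of no annotated gene lying inside protein-coding genes, spliced or not, numbered 3039 under Control SMO and 9069 under LFPRLR SMO, 2.98 times as many. Total read numbers were not given, so the depth is unknown. Transcripts under 300 bases made up 99.4% of all FPKM under Control SMO and 87.2% under LFPRLR SMO. Rescaling to TPM shifted ratios of genes listed in both libraries up by 4.55 on the log2 scale, before 0.1 was added. On that scale 6 of 6 tested regulators were higher by a factor of 2 and 0 lower. The median log2 ratio of the regulators was 3.90 after adding 0.1. This median cannot be set against the shift of 4.55, which holds only before 0.1 is added. The share of all genes past a factor of 2 was not counted on that scale.

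**Figure D1:**
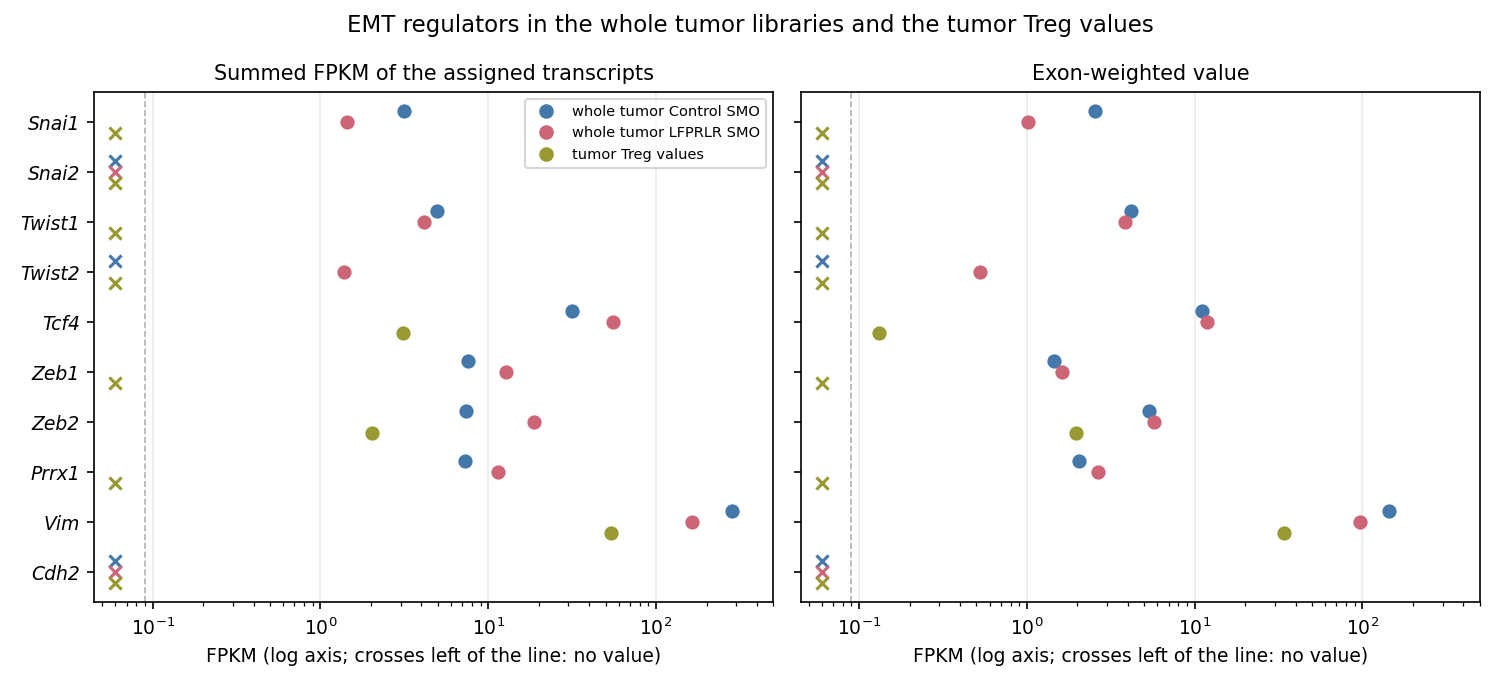
Level of each of the 10 regulators as summed FPKM (left) and exon-weighted value (right), both on a log axis, with 1 point per library and a cross where no value was listed. *Vim* stands far above the transcription factors in both whole tumor libraries, and the gaps of *Tcf4*, *Zeb1* and *Zeb2* between the SMOs close in the right panel.

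Among the 8 regulators with an FPKM of at least 1, the summed FPKM was higher by a factor of 2 or more under LFPRLR SMO for 2 (*Zeb2* and *Twist2*) and lower for 1 (*Snai1*). Of all 10463 genes tested in the same way, 18.5% were higher and 17.0% were lower, so that 2 and 1 of 8 were near the share of all genes. By the exon-weighted value 0 of 7 were higher and 1 (*Snai1*) was lower, against 3.98% and 7.98% of 8316 genes. *Twist2* was not counted there, because its exon-weighted value of 0.528 under LFPRLR SMO was below the minimum of 1. Over shared bases 0 of 7 were higher and 1, again *Snai1*, was lower, against 1.81% and 3.71% of 8708 genes. The median log2 ratio of the regulators was 0.69 by summed FPKM, 0.09 by the exon-weighted value and -0.08 over shared bases, beside medians over all genes of -0.08, -0.14 and -0.12. The regulators thus lay above the median gene by summed FPKM and close to it by both measures that weight pieces by their length.

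**Figure D2:**
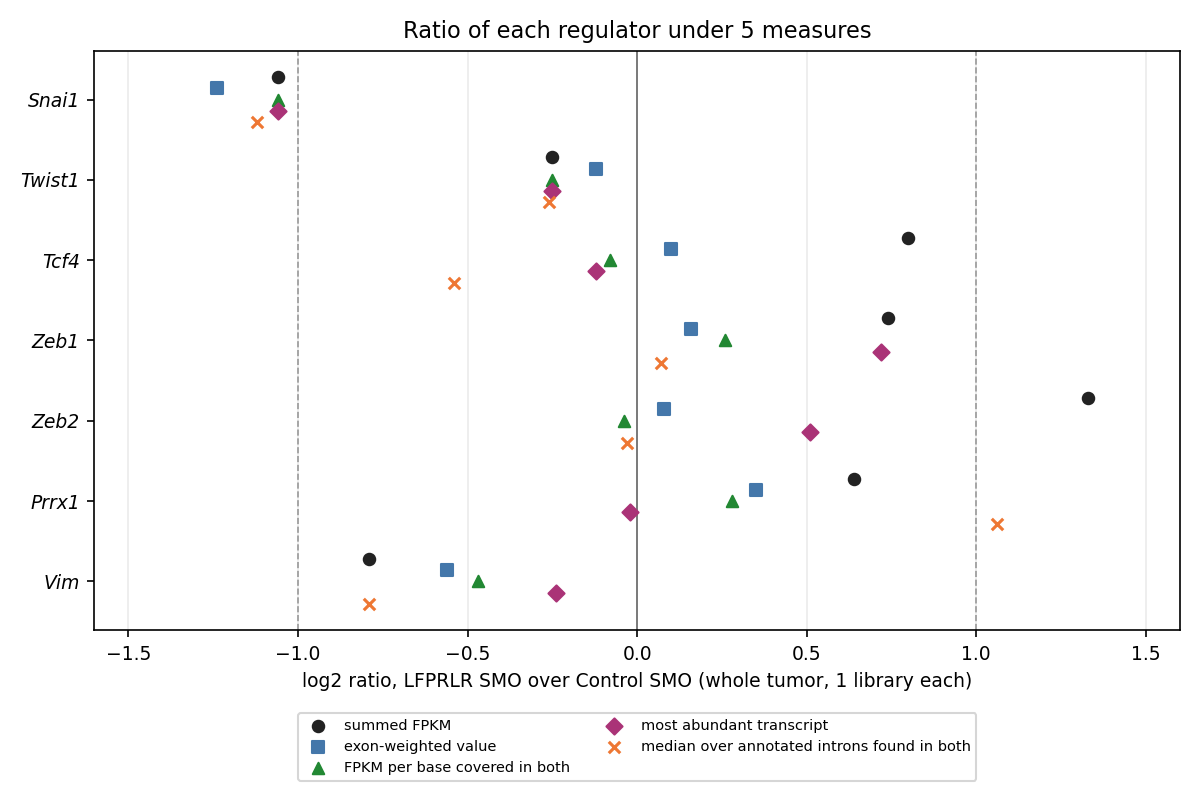
Log2 ratio of LFPRLR SMO over Control SMO for the 7 regulators with a value in both whole tumor libraries, under 5 measures, with dashed lines at a factor of 2. *Snai1* lies beyond the line on the lower side under every measure shown, and *Zeb2* moves from 1.33 by summed FPKM to -0.04 over shared bases.

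The sequences that follow are those of the promoters of *Twist1*, *Twist2* and *Snai1*, shown because the LFPRLR SMO transcript of each gene began upstream of the annotated start. Each run is the 250 bases before the RefSeq start (build GRCm38.p6), written 5′ to 3′. Capitals mark the bases that lay inside the LFPRLR SMO transcript.
Twist1, chr12:33957421-33957670, plus strand: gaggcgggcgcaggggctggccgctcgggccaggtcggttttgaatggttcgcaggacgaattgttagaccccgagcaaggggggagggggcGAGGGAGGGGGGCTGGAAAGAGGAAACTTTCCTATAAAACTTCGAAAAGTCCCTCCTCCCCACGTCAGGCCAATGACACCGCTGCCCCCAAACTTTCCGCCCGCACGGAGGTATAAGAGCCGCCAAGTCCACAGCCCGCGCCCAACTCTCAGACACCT
Twist2, chr1:91801211-91801460, plus strand: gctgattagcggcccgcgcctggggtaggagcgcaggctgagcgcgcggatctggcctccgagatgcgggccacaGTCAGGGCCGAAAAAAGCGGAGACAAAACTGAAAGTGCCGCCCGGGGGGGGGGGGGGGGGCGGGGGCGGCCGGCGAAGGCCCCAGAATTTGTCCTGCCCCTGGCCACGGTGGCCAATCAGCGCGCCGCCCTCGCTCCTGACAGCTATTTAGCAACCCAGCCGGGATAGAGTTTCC
Snai1, chr2:167537945-167538194, plus strand: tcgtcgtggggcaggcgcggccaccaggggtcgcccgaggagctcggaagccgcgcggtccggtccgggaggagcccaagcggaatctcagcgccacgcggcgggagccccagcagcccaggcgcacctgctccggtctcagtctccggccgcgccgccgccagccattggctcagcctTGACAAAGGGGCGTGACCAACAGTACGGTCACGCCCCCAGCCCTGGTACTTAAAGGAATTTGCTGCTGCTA
The LFPRLR SMO transcripts reached 158, 175 and 71 bases into these windows for *Twist1*, *Twist2* and *Snai1*. The Control SMO transcripts of *Twist1* and *Snai1* began 158 and 429 bases downstream of the start instead. This was not particular to the regulators. Among protein-coding genes with a value, 29.9% had a transcript start at least 50 bases upstream of the annotated gene start under LFPRLR SMO and 13.3% under Control SMO.

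The windows were rich in G and C, at 62.4% for *Twist1*, 68.8% for *Twist2* and 70.0% for *Snai1*, beside a median of 52.4% over 32851 RefSeq promoter windows of that length. An E-box, CANNTG, which reads the same on both strands, was found in 1 of the 3 windows, that of *Snai1*, and in 66.2% of all windows. The *Snai1* match, at position -126 from the start, was CACCTG, the form bound by Snail and ZEB zinc fingers, and CAGGTG or CACCTG occurred in 17.2% of all windows. *Twist1* held TATAAA at position -126, inside the capitals, and TATAAA or TTTATA occurred in 12.4% of all windows. These are matches of letters and not measured sites.

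Primers of a PCR assay for *Vim*, *Snai2* and *Twist1*, used on cultured tumor cells, are shown because they mark which stretches of these genes that assay reads. They are printed 5′ to 3′ with the position of each in mm10, and reverse primers read the minus strand.
Vim forward, chr2:13574749-13574768: actgcaggagctgaatgacc
Vim reverse, chr2:13578429-13578448: aaggtcaagacgtgccagag
Snai2 forward, chr16:14705934-14705951: cgcctggaccgttatccg
Snai2 reverse, chr16:14706802-14706821: ctgccgacgatgtccataca
Twist1 forward, chr12:33959426-33959447: cccaccccactttttgacgaag
Twist1 reverse, chr12:33959587-33959606: gccagtttgatcccagcgtt
The *Vim* pair lies in coding exons 1 and 3 and makes a product of 343 bases. The *Vim* forward site was covered by transcripts with an FPKM of 141 under Control SMO and 164 under LFPRLR SMO, and the reverse site by 283 and 164, so that the 2 ends of 1 product stood in opposite order between the libraries. The *Snai2* pair lies in the 5′ UTR in exon 1 and in coding exon 2 (230 bases), where no transcript was listed. The *Twist1* pair lies in the 3′ UTR in exon 2 (181 bases), where the FPKM was 4.94 and 4.13.

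*Snai1* (ENSMUSG00000042821.7, chr2:167538195-167542814, plus strand) encodes Snail, the founding EMT repressor of E-cadherin. Its summed FPKM was 3.13 under Control SMO and 1.44 under LFPRLR SMO, a log2 ratio of -1.06, from 1 transcript in each library. The exon-weighted values were 2.54 and 1.02, lower by a factor of 2.49. The deposited 95% bounds of the FPKM were 2.23 to 4.03 under Control SMO and 0.764 to 2.21 under LFPRLR SMO and did not overlap, though bounds on a transcript cover its own estimate and not the difference between pools of mice. The shapes of the transcripts differed. With LFPRLR SMO all 3 exons of Snai1-201 were assembled, whereas under Control SMO the first exon was missing and the transcript held the other two. At the 1 annotated intron that both transcripts crossed, the FPKM was 3.13 against 1.44. *Snai1* ranked 7052nd of 9611 genes under Control SMO and 9099th of 9710 under LFPRLR SMO, so it was a low gene in both. The factor did not reach 2 when ratios were centred on the median gene (log2 ratio -0.97) or when 1 was added in place of 0.1 (-0.76).

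*Snai2* (ENSMUSG00000022676.7, chr16:14705852-14709385, plus strand) encodes Slug, the second Snail factor. No transcript was listed for it in either whole tumor library or among the tumor Treg values, and 0 of its 2021 exon bases were covered. The lowest FPKM listed for any transcript of similar length (within 20%) was 0.211 under Control SMO and 0.346 under LFPRLR SMO. A level of *Snai2* below such values could go unlisted, so its absence from the lists does not show that it was not expressed.

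*Twist1* (ENSMUSG00000035799.6, chr12:33957671-33959829, plus strand), a master factor of mesoderm and of tumor cell dissemination, had a summed FPKM of 4.94 under Control SMO and 4.13 under LFPRLR SMO. The log2 ratio was -0.25 by summed FPKM and -0.12 by the exon-weighted value (4.18 and 3.84). Each library held 1 spliced transcript with the single intron of Twist1-201, and the deposited bounds, 3.29 to 6.41 and 3.14 to 5.12, overlapped over most of their length. *Twist1* was thus covered over 84.6% and 92.9% of its exon bases and was among the regulators that differed least.

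*Twist2* (ENSMUSG00000007805.4, chr1:91801461-91848028, plus strand) encodes the close relative of *Twist1* that is best known from dermal fibroblasts. It had no listed transcript under Control SMO and 1 under LFPRLR SMO, at an FPKM of 1.38 with deposited bounds of 0.663 to 2.06. That transcript was a single unspliced piece of 1138 bases, from 175 bases upstream of the start to 962 bases downstream, and it did not cross the annotated intron. An antisense gene, Gm29100, shares 1477 exon bases with *Twist2*, and whether the libraries marked strand was not given in the sources used here, so reads from the 2 genes cannot be told apart. The lowest Control SMO value listed for a transcript of about the length of *Twist2* was 0.211. No fold is given because 1 side was unlisted, and with transcripts assigned by a shared intron alone *Twist2* had no value in either library.

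**Figure D3:**
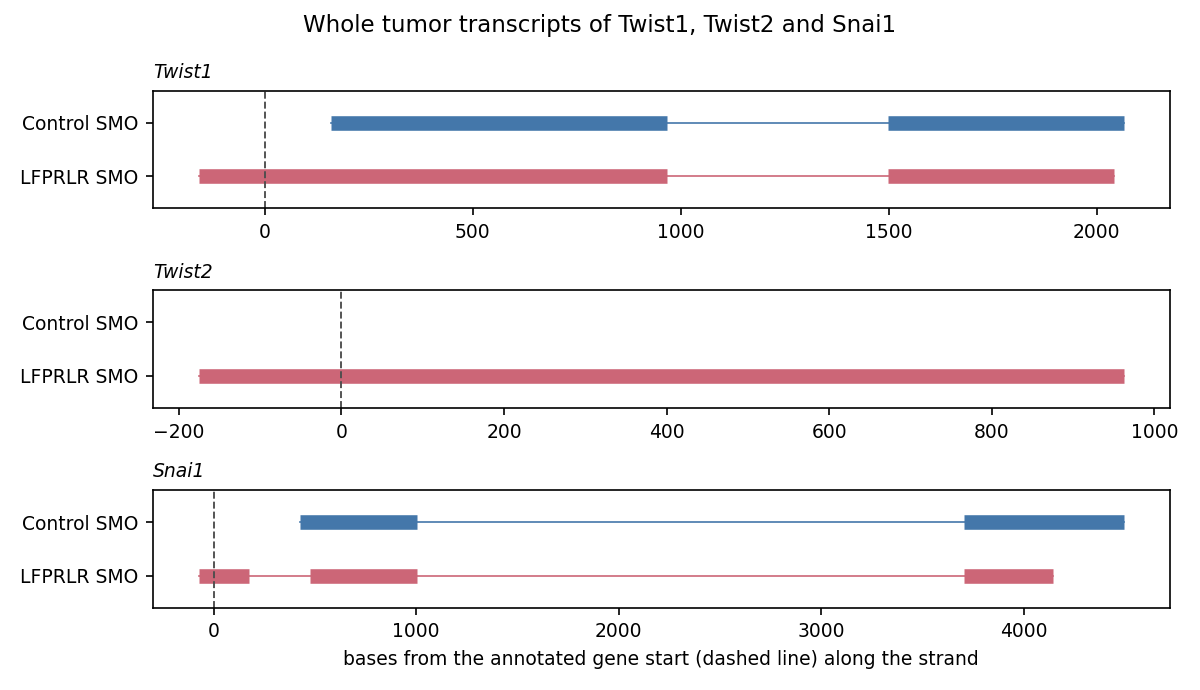
Whole tumor transcripts of *Twist1*, *Twist2* and *Snai1* along the strand, in bases from the annotated gene start (dashed line), with exons as bars and introns as lines. The LFPRLR SMO transcripts begin 158, 175 and 71 bases upstream of the start, and the Control SMO transcripts of *Twist1* and *Snai1* begin downstream of it.

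*Tcf4* (ENSMUSG00000053477.17, chr18:69343356-69689079, plus strand) was the most abundant of the transcription factors. It encodes an E protein that also acts in plasmacytoid dendritic cells and neurons, and it is a different gene from the WNT effector once called TCF4. Its summed FPKM was 31.7 under Control SMO from 3 transcripts and 55.1 under LFPRLR SMO from 9, a log2 ratio of 0.80. The exon-weighted values were 11.1 and 11.9, and the FPKM over shared bases was 12.3 and 11.6. The excess by summed FPKM thus came with 6 more pieces. Of the LFPRLR SMO pieces, 2 were unspliced stretches of 334 and 347 bases at an FPKM of 10.6 and 10.9, each above the upper bound deposited for it (7.28 and 7.49). Without pieces above their own upper bound the sums were 31.7 and 33.6. The longest unspliced piece, which lay in the last exon and measured 5424 and 5366 bases, had an FPKM of 10.1 under Control SMO and 10.7 under LFPRLR SMO.

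*Tcf4* has many alternative first exons, which give E2-2 proteins with different amino termini. At 5 shared introns of the longest forms, whose Control SMO transcript begins 2563 bases from the gene start, spliced FPKM was 11.8 under Control SMO and 5.90 under LFPRLR SMO. The shorter form beginning 250016 bases into the gene was spliced at an FPKM of 9.71 under Control SMO and, with the same first intron, 6.21 under LFPRLR SMO. A further LFPRLR SMO form at 2.91 used a first exon close by, and another, at 2.74, one 178419 bases from the gene start. Neither was listed under Control SMO. Of the 19 annotated introns found in both libraries, 1 was higher under LFPRLR SMO, and the median log2 ratio over them was -0.54. The measures therefore gave different directions for *Tcf4*, higher by pieces and lower by splicing.

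The exception was an alternative splice donor. In *Tcf4*, 2 donors 12 bases apart join the same acceptor and add or leave out 4 codons. The donor that leaves the 12 bases out had a spliced FPKM of 11.8 under Control SMO and 7.87 under LFPRLR SMO. The donor that includes them had 9.71 under Control SMO and 12.1 under LFPRLR SMO. The order of the 2 forms was thus opposite in the libraries, although both values rest on how the assembler divided the reads among transcripts.

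*Zeb1* (ENSMUSG00000024238.15, chr18:5591860-5775467, plus strand) and *Zeb2* encode the factors that stand in mutual repression with the miR-200 family. The summed FPKM of *Zeb1* was 7.60 under Control SMO and 12.7 under LFPRLR SMO, from 4 transcripts each, a log2 ratio of 0.74. Its exon-weighted values were 1.45 and 1.62, and over shared bases it had 1.85 and 2.23. No transcript spanned the gene in either library. A 408-base unspliced piece of the last exon under LFPRLR SMO was given an FPKM of 5.10, above its own upper bound of 4.73, and without it the sums were 7.60 and 7.64. The 5′ part of *Zeb1* was assembled from 2 starts under Control SMO, at 12081 and 49530 bases from the gene start, and from 1 under LFPRLR SMO, 33 bases from it. At the next introns downstream, which both libraries shared, spliced FPKM was 5.11 and 5.38, and in the 3′ part, at the intron shared by both libraries, it was 1.26 and 1.04. Over the 3 annotated introns found in both, the log2 ratios thus ran from -0.28 to 0.07.

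*Zeb2* (ENSMUSG00000026872.17, chr2:44983632-45117395, minus strand) had the largest ratio of the genes listed in both libraries, with a summed FPKM of 7.40 from 4 transcripts under Control SMO and 18.8 from 8 under LFPRLR SMO (log2 ratio 1.33). The exon-weighted values were 5.37 and 5.69, and the FPKM over shared bases was 5.08 and 4.92. Spliced FPKM across most of the 9 annotated introns found in both libraries was 5.45 under Control SMO and 5.34 under LFPRLR SMO. It was higher under LFPRLR SMO at 2 of them. At 1 of these it was 5.45 and 7.24, where a partial spliced piece (1.90) was listed under LFPRLR SMO only. Both libraries held the Zeb2-214 chain of introns (1.59 and 3.47) and the Zeb2-201 chain (1.46 and 1.87), and under Control SMO another form, Zeb2-202 (2.40), began at a first exon further upstream. The first exon of Zeb2-202 had no spliced transcript under LFPRLR SMO. The unspliced pieces differed in number, 1 under Control SMO at 1.95 and 5 under LFPRLR SMO at 1.86 to 2.88. Of those 5, 4 lay outside the exons of the spliced forms, 3 in the long intron near the 5′ end and 1 in a later intron. These 4 were assigned because at least 50% of their bases lie in exons of other annotated *Zeb2* transcripts. They and the unspliced Control SMO piece carried no strand, so they were not matched to *Zeb2* by strand.

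Within the bounds of *Zeb2* lay further unspliced transcripts assigned to no gene, 12 under Control SMO and 32 under LFPRLR SMO. Their summed lengths were 10284 and 37516 bases, and some under LFPRLR SMO overlapped, so that shared bases count more than once. An LFPRLR SMO piece of 2053 bases held 816 bases of *Zeb2* exon, 39.7% of its length, and was not assigned. The same exon bases made up 88.7% of the assigned Control SMO piece at 1.95. Over all regulators transcripts of no gene numbered 17 and 50, a ratio of 2.94, beside 2.98 over all protein-coding genes, counted whether spliced or not. The ratio for the regulators was thus close to that of other genes, and its cause was not tested. An antisense gene, Zeb2os, shares 653 exon bases with *Zeb2*.

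**Figure D4:**
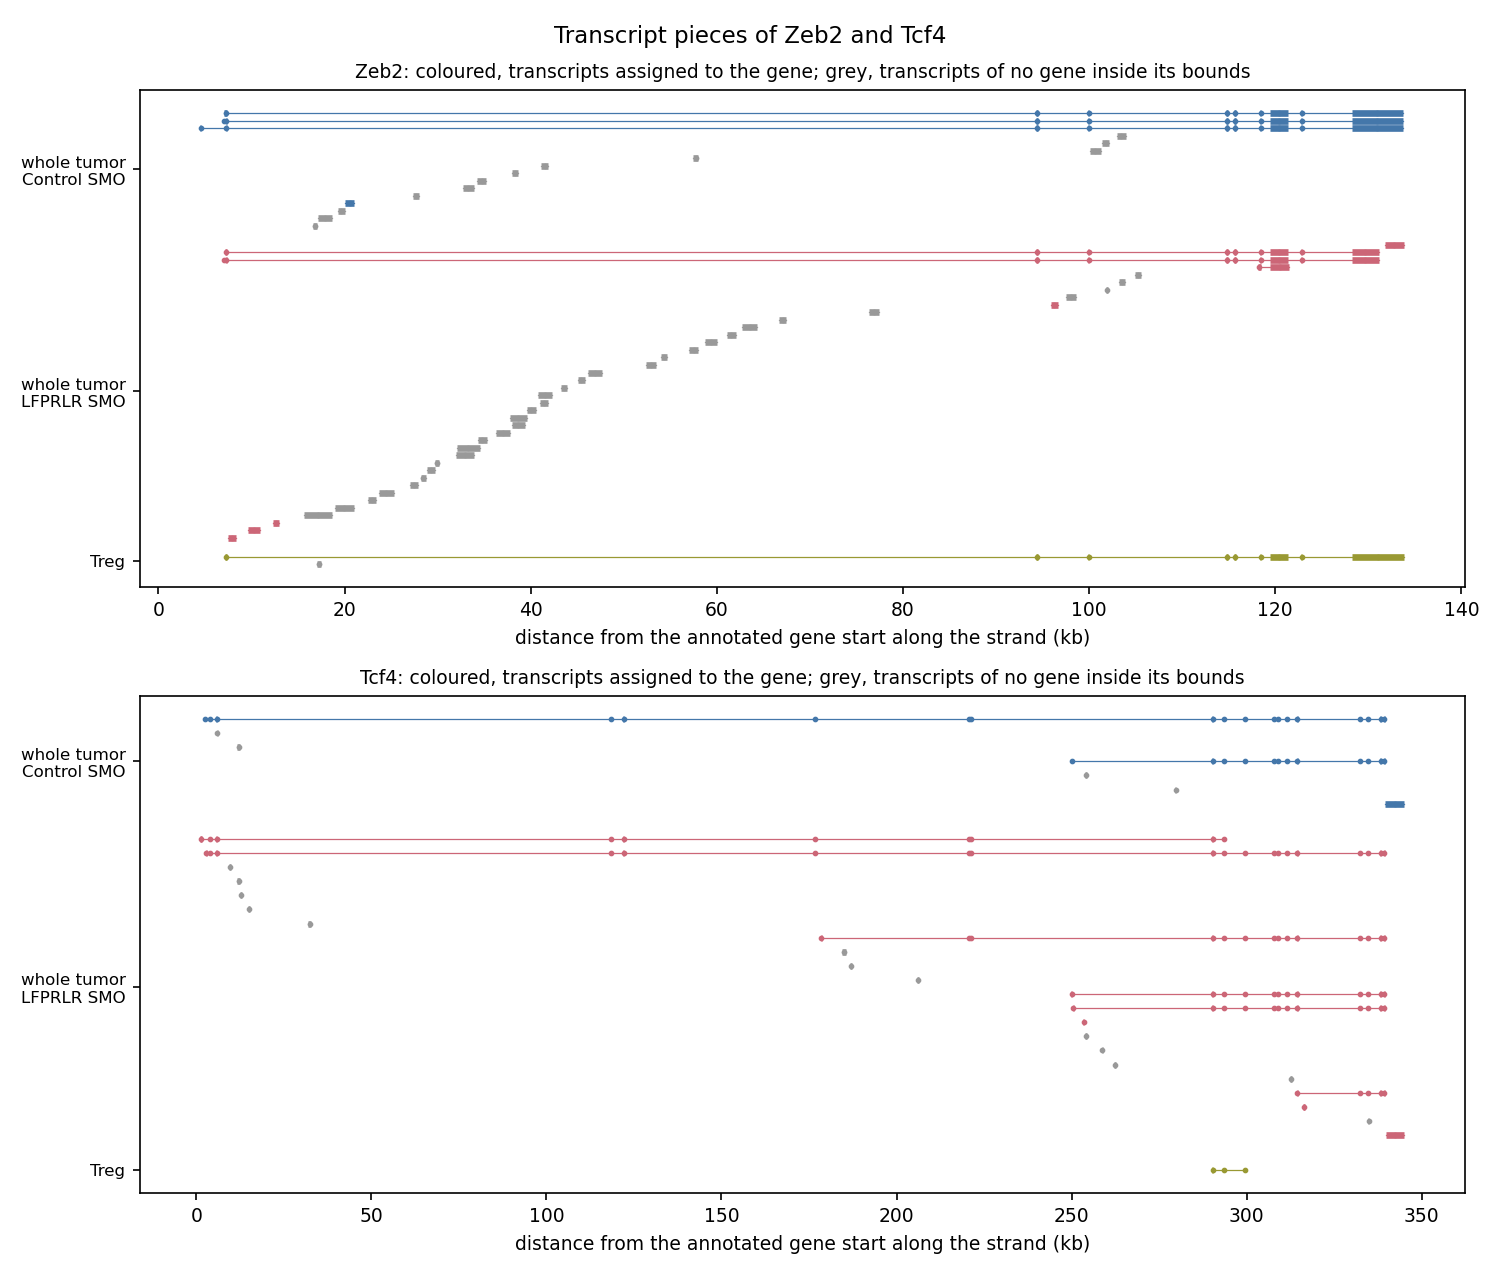
Transcripts of *Zeb2* and *Tcf4* in each library, in kb from the annotated gene start, with thick bars and dots for exons, thin lines for introns, colours for transcripts assigned to the gene and grey for transcripts of no gene. Some spliced forms of *Zeb2* are shared by both whole tumor libraries. The Control SMO form that begins furthest upstream has no spliced counterpart under LFPRLR SMO, and a partial spliced piece is listed under LFPRLR SMO only. Unspliced pieces of no gene within the bounds of *Zeb2* are more numerous under LFPRLR SMO (32 against 12).

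*Prrx1* (ENSMUSG00000026586.16, chr1:163245119-163313710, minus strand) was the one regulator that was higher with the LFPRLR oligomer by summed FPKM, by both length-weighted measures and at every annotated intron found in both libraries. The summed FPKM was 7.29 and 11.4, from 4 transcripts each (log2 ratio 0.64). The exon-weighted values were 2.05 and 2.64, and over shared bases 3.45 and 4.23, a ratio of 1.22. All 5 annotated introns found in both libraries were higher under LFPRLR SMO, with a median log2 ratio of 1.06 and a range of 0.28 to 1.29. *Prrx1* makes 2 protein forms that differ at the carboxyl end by the use of an exon of 72 bases. The form with that exon (Prrx1-202) had an FPKM of 1.39 under Control SMO and 3.40 under LFPRLR SMO, and the form without it (Prrx1-201) had 1.42 and 2.96. Both listed values were higher by more than a factor of 2, but the LFPRLR SMO value of the second form comes from a transcript with only its last 2 exons. At the introns further upstream, which both forms share, spliced FPKM was 2.81 under Control SMO and 3.40 under LFPRLR SMO. The fold of each form and their proportion therefore cannot be read from these values. The 3′ end of the last exon was assembled apart in both libraries, and that unspliced piece was at 3.46 under Control SMO and 3.28 under LFPRLR SMO. The most abundant single transcript was this unspliced piece under Control SMO and the spliced Prrx1-202 transcript (3.40) under LFPRLR SMO. The log2 ratio of -0.02 by the most abundant transcript therefore compares different transcripts.

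**Figure D5:**
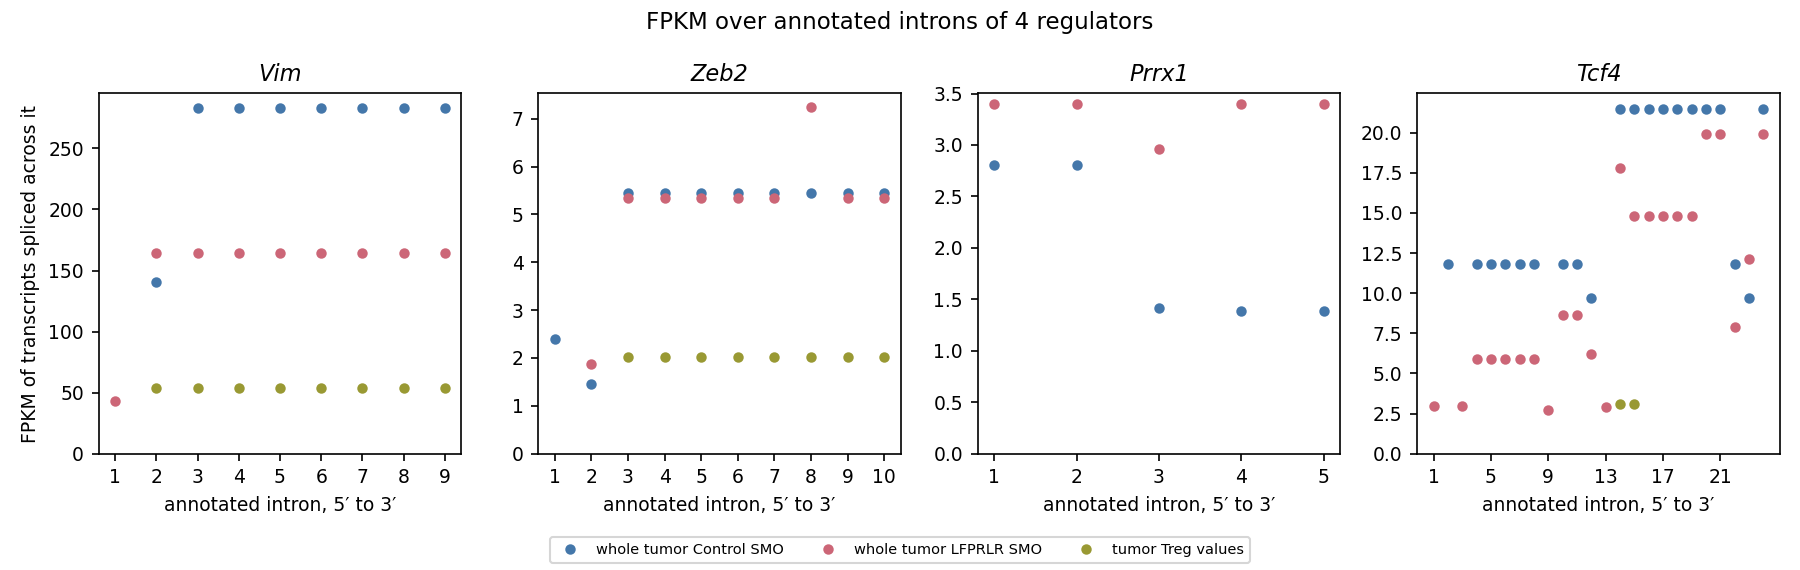
FPKM of the transcripts spliced across each annotated intron of *Vim*, *Zeb2*, *Prrx1* and *Tcf4*, in order from 5′ to 3′, on linear axes that start at 0. *Zeb2* overlaps between the SMOs at 5.45 and 5.34 at most introns and is higher under LFPRLR SMO at 2 of the 9 found in both. *Prrx1* is higher under LFPRLR SMO at 5 of 5 introns, and *Tcf4* is higher at 1 of the 19 introns found in both.

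*Vim* (ENSMUSG00000026728.9, chr2:13573927-13582826, plus strand) was by far the most abundant of the 10 genes, ranking 79th of 9611 under Control SMO and 104th of 9710 under LFPRLR SMO. Its summed FPKM was 283 and 164, a log2 ratio of -0.79, from 2 transcripts each. The exon-weighted values were 143 and 97.1 (log2 ratio -0.56), and over shared bases 224 and 161 (-0.47). The full chain of 8 introns of Vim-201 was assembled in both libraries, at 141 under Control SMO and 121 under LFPRLR SMO. The second Control SMO transcript (143) lacked the first exon, and the second LFPRLR SMO transcript (42.9) had a further intron in the 5′ region that no Control SMO transcript held. The difference was therefore uneven along the gene. At the first intron of Vim-201 the spliced FPKM was 141 under Control SMO and 164 under LFPRLR SMO, higher under LFPRLR SMO, and at the other 7 it was 283 and 164. The call of *Vim* as lower thus rests on the part of the gene after the first exon.

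*Cdh2* (ENSMUSG00000024304.14, chr18:16588877-16809246, minus strand) had no listed transcript in any library. Among transcripts of similar length the lowest listed FPKM was 0.233 under Control SMO and 0.287 under LFPRLR SMO. E-cadherin, *Cdh1*, its counterpart in epithelia, was listed at 11.8 and 22.3 by summed FPKM and at 11.7 and 11.2 by the exon-weighted value. No N-cadherin value could be set beside it.

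In order of exon-weighted value, the regulators under Control SMO were *Vim* (143), *Tcf4* (11.1), *Zeb2* (5.37), *Twist1* (4.18), *Snai1* (2.54), *Prrx1* (2.05) and *Zeb1* (1.45). With LFPRLR SMO the first 4 kept their places, and *Snai1* (1.02) came after *Prrx1* (2.64) and *Zeb1* (1.62). With 1 library per SMO there is no spread against which neighbours in this order can be set.

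Other EMT genes were read from 8 lists by role. The counts of higher and lower genes by summed FPKM in each list stand beside 18.5% higher and 17.0% lower of all genes. Of 16 other EMT transcription factors, 12 were listed. By summed FPKM 2 were higher by a factor of 2 and 0 were lower, and the median log2 ratio was 0.17 (-0.08 by the exon-weighted value). *Wwtr1*, the TAZ coactivator, had a summed FPKM of 25.4 under Control SMO and 18.1 under LFPRLR SMO, and *Sox4* 20.9 and 18.7. *Prrx2*, the relative of *Prrx1*, was listed under LFPRLR SMO only, at 3.28, and the forkhead factor *Foxc2* was at 3.09 and 1.86.

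Of 15 partners and inhibitors of the factors, 14 were listed, 2 higher and 1 lower, with a median log2 ratio of -0.54 by summed FPKM and -0.19 by the exon-weighted value. *Hdac2*, a histone deacetylase recruited by Snail, had a summed FPKM of 40.5 under Control SMO and 21.8 under LFPRLR SMO, and the histone demethylase *Kdm1a* 9.81 and 12.4. The corepressor *Sin3a* was higher (4.05 and 11.6) and the Polycomb gene *Suz12* lower (13.0 and 6.28) by summed FPKM, but by the exon-weighted value they had log2 ratios of -0.01 and 0.33. All 8 genes for the turnover of Snail proteins were listed in at least 1 library, 2 higher and 1 lower, with a median log2 ratio of -0.06. *Gsk3b*, the kinase that marks Snail for degradation, was at 9.62 and 8.54, the ubiquitin ligase gene *Fbxo11* at 14.6 and 10.1, and *Fbxl14* at 3.50 and 13.3, where it had 1 and 3 transcripts and exon-weighted values of 3.38 and 3.52. *Btrc*, another ligase gene for Snail, was listed at 6.37 under Control SMO and had no assigned transcript under LFPRLR SMO.

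Of 25 epithelial target genes, 21 were listed, 1 higher and 2 lower of the 20 tested, beside 18.5% and 17.0% of all genes, with a median log2 ratio of -0.05 (-0.13 by the exon-weighted value). *Krt18* was at a summed FPKM of 124 under Control SMO and 112 under LFPRLR SMO and *Epcam* at 47.7 and 53.3. *Muc1* was listed under LFPRLR SMO only (1.29) and *Llgl2* under Control SMO only (1.66). Of 24 mesenchymal target genes, 23 were listed and 0 differed by a factor of 2 in either direction, beside the same shares of all genes. Their median log2 ratio was 0.12. Their summed FPKM was 1786 under Control SMO and 1785 under LFPRLR SMO. By the exon-weighted value their total was 733 and 858, and their median log2 ratio was 0.27, beside -0.14 over all genes. *Col3a1* was at 278 and 361 and *Col1a1* at 197 and 206. *S100a4*, which encodes the small calcium-binding protein FSP1, had the largest ratio (52.0 and 93.3, from 1 transcript each), and *Ccn2* the smallest (22.9 and 12.3, from 2 transcripts and 1, with exon-weighted values of 11.1 and 13.2).

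Of 23 upstream inducers, 20 were listed, 4 higher and 1 lower by summed FPKM and 0 in either direction of 16 by the exon-weighted value, with medians of 0.06 and 0.01. *Tgfb1*, the best known inducer of EMT, was the one lower, at 23.4 from 3 transcripts under Control SMO and 5.13 from 1 under LFPRLR SMO, and its exon-weighted values were 5.42 and 4.34. *Hif1a* was at 19.9 and 22.2, *Nfkb1* at 10.7 under Control SMO with a log2 ratio of 0.90 (-0.02 by the exon-weighted value), and *Fgf2* was listed under LFPRLR SMO only (1.53). Of 8 intermediate filament genes and partners of vimentin, 6 were listed, 2 higher and 0 lower, with a median of -0.05. *Lmna* was at 36.8 and 30.5 and *Nes* at 11.5 and 6.82, and the very long gene *Dst*, with 3 and 7 transcripts, at 17.2 and 54.6 (exon-weighted 6.40 and 7.63). Of 9 cadherins and catenins, 8 were listed, 1 higher and 1 lower, with a median of 0.42 (-0.08 by the exon-weighted value). *Ctnnb1* was at 39.6 and 30.5, *Ctnna1* at 26.4 and 42.3, *Ctnnd1* at 5.06 and 14.8, and *Cdh13* at 29.9 and 5.73. In 4 lists, those of epithelial targets, inducers, intermediate filaments and cadherins, some genes differed by a factor of 2 by summed FPKM. Of the genes of these lists with an exon-weighted value of at least 1, 0 did so by that value. Genes below 1, such as *Muc1*, *Llgl2* and *Fgf2*, each listed in 1 library only, were not counted by the exon-weighted value. Over all genes the share also fell between these measures, from 18.5% to 3.98% higher and from 17.0% to 7.98% lower.

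Cell type markers were read beside these values, and their counts at a factor of 2 stand beside 18.5% higher and 17.0% lower of all genes. All 12 monocyte and macrophage markers were listed in both whole tumor libraries, and their summed FPKM was 653 under Control SMO and 436 under LFPRLR SMO, with a median log2 ratio of -0.55 (-0.59 by the exon-weighted value). Of these 12, 1 was lower by a factor of 2 and 0 were higher, and their part in the differences of *Vim* and *Snai1* was not tested. Fibroblast markers, 11 of 12 listed, had sums of 914 and 944 and a median of 0.15, with *Fap* not listed, and pericyte and smooth muscle markers, 8 of 8 listed, had sums of 52.0 and 65.7 and a median of 0.29. By a factor of 2, 1 of 11 fibroblast markers and 2 of 8 pericyte and smooth muscle markers were higher and 0 were lower. Within the fibroblast list values went both ways, with *Col3a1* at 278 and 361 and *Col1a2* at 224 and 127. The part of either list in the difference of *Prrx1* was likewise not tested. Markers of the 4T1 epithelium, 11 of 12 listed, had sums of 353 and 343. Endothelial markers (8 of 10 listed) had 50.1 and 47.7, neutrophil markers (5 of 8) 97.2 and 108, skeletal muscle markers (6 of 8) 17.0 and 26.8, and adipocyte markers (3 of 8) 24.1 and 27.1. Of 8 dendritic cell markers 1, *Itgax*, was listed, and of 12 T cell and Treg markers 1, *Ikzf2*.

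The tumor Treg values gave no comparison of the SMOs, because all 4838 transcripts were equal under both labels, and they were counted once. Of 12 T cell and Treg markers, *Cd3e*, *Cd4* and *Foxp3* among them, 0 were listed there, whereas 12 of 12 monocyte and macrophage markers were, with a summed FPKM of 488. The values therefore went against the label of sorted Tregs. Of the 10 regulators 3 were listed. *Vim* was at an FPKM of 54.1, ranking 61st of 3672 genes, with the full chain of Vim-201. *Zeb2* was at 2.03 with the full chain of Zeb2-214, without the unspliced pieces of whole tumor apart from 1 of no gene. *Tcf4* was at 3.12, from a piece of 364 bases in 3 exons that covered 1.33% of its exon bases, and its exon-weighted value was 0.132. *Snai1*, *Twist1*, *Zeb1* and *Prrx1*, which were listed in both whole tumor libraries, had no transcript among the Treg values, where fewer genes were listed overall. Whole tumor and Treg values came from different programs and were scaled apart, so the levels are not compared further.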

How the data were processed

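RNAseq had 1 library of 6 pooled mice per group. The authors depleted rRNA, built Kapa libraries and aligned reads to mm10. Per the submitters' processing notes, the tools were Cufflinks, Cuffdiff 2.0.2, StringTie 1.2.3 and HISAT2 2.0.4, and the version of Cufflinks was not given in the sources used here. The whole tumor files the authors deposited hold an FPKM, its bounds and a coverage per assembled transcript, among other attributes and without gene names. The deposited Treg files give each transcript an FPKM, a TPM and a coverage.

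Here each transcript was assigned to a gene of GENCODE M21 (GRCm38, which is mm10) by the symbol in the file, else by a shared intron. Failing both, it was assigned by at least 50% of its exon bases, on the same strand where the transcript carried a strand. Transcripts without a strand were accepted for genes on either strand. FPKM was summed per gene, and genes reaching an FPKM of 1 in either library were counted as higher or lower at a factor of 2. All 10 regulators were named, and in each other list the 2 genes highest in FPKM and those with the largest and smallest ratio. The members and lists were chosen with earlier results of these data known. The assignment and the calls were tested on simulated transcripts with at most 1 cut per gene in each library. Genes in many pieces and pieces without a strand were not simulated, so that test does not cover them. Alternatives were other pseudocounts, minimums, factors, scalings and assignment rules. Python 3.11.15 was used.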

Additional observations from a re-analysis of the deposited data

How the results depend on the processing

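With 1 library per SMO no replicate could be left out. No paired analysis was possible because each group held 1 library and no test was made. The number of regulators higher under LFPRLR SMO, 2 in the report, was 1 with an FPKM of at least 5, with the most abundant transcript alone, with assignment by a shared intron only (then *Prrx1*), at a factor of 3 and with genes listed in both libraries only. It was 0 by the exon-weighted value and per shared base, neither of which counted *Twist2*, and 6 under TPM. The number lower, 1 in the report, was 0 with a pseudocount of 1, an FPKM of at least 5, TPM, centring on the median gene (which lay at -0.09) and a factor of 3. The median log2 ratio, 0.69 in the report, was 0.09 by the exon-weighted value, -0.07 by the most abundant transcript, 3.90 under TPM, 0.01 by shared introns only, -0.08 per shared base and 0.04 without transcripts above their own upper bound. Of 93 ratios of single regulators under the alternatives, 70 stayed within a factor of 1.5 of the report's and 23 did not. Of the 93, 7 had the opposite sign. Under TPM, which shifts genes listed in both libraries by 4.55 before 0.1 is added, these were *Snai1* (1.82), *Vim* (3.72) and *Twist1* (2.93). By the most abundant transcript they were *Prrx1* (-0.02) and *Tcf4* (-0.12), and for both genes that transcript was a different one in each library. Per shared base they were *Tcf4* (-0.08) and *Zeb2* (-0.04). The number of regulators listed, 8, was 7 by shared introns only and 8 otherwise. The value per shared base, the removal of transcripts above their bounds and the restriction to genes listed in both libraries were chosen after seeing the data.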
